A study of Arabidopsis thaliana with 17 samples.

Results

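The chloroplast genome of Arabidopsis thaliana encodes core proteins of the photosynthetic complexes together with part of the organelle's own machinery for making RNA and protein. Its genes are read by a plastid-encoded RNA polymerase, which takes its sigma factors (promoter-recognition subunits) from nuclear genes, and by phage-type polymerases that are nuclear-encoded themselves. Most plastid messages carry no stable poly(A) tail, and a tail added to a plastid RNA marks it for degradation, so libraries selected on poly(A) sample this RNA thinly.

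Members were all rows whose locus identifier begins with ATCG, the prefix of the chloroplast genome. This rule gave 88 of the 27655 genes in each library. Of these 88, 83 passed the filter on low counts and could be tested, with mean counts of 7.82 to 3182 per library and a median of 62.4. The other 5 members had mean counts of at most 5.88 and never more than 11 counts in a library. The files carry locus identifiers without gene names for these rows, and the reference annotation names 6 of them, only as the closest matches of nuclear proteins. The 6 are followed by name below. A further 3 loci are followed by identifier and were chosen after their values were seen. The rest are described by counts and ranges.

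Poly(A) RNA of seedlings from hydroponic culture, 14 days old, was sequenced in 17 libraries, taken at 0 h and at 24 h of 200 mM NaCl. The lines were atdgcr14l-1, a mutant of the splicing-related gene AtDGCR14L, OE-6, a complementation line in which the constitutive 35S promoter drives AtDGCR14L in the mutant background, and Col-0, the wild type. At 24 h of salt each line had 3 libraries. At 0 h atdgcr14l-1 had 3, OE-6 had 3 and Col-0 had 2. Whether replicates stem from different plants is not in the labels, so the p-values speak only of the spread among these libraries, which may be technical. Since libraries kept for 24 h without salt were not analysed here, the 24 h of elapsed time and the salt cannot be told apart.

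Library totals lay between 53058673 and 56464259 estimated counts, of which 10453 to 18509 at 24 h and 17970 to 30468 at 0 h came from chloroplast genes. The gene targeted in the mutant, AT3G07790 (annotated as a DGCR14-like protein), had 11.3 to 13.1 CPM (the count scaled to a common library total) in atdgcr14l-1 at 24 h, against 67.6 to 88.3 CPM in OE-6 and Col-0. At 0 h it had 6.76 to 8.52 CPM in the mutant, against 43.25 to 59.9 CPM in OE-6 and Col-0. As a check of the labelled tissue, 20 nuclear photosynthesis genes held 4.05 to 6.06% of all counts at 24 h and 8.43 to 9.64% at 0 h. Of 12 root marker genes, 7 passed the filter, with a summed level of 27.2 to 44.15 CPM at 24 h and 41.8 to 46.3 CPM at 0 h that came mostly from SCR. In Col-0 at 0 h SCR averaged 28.1 CPM and SHR 13.8 CPM. The next highest marker there, PHT1;1, averaged 1.15 CPM, and PRP3, CASP1 and COBL9 averaged 0.350, 0.297 and 0.066 CPM. The summed level thus says little about the other root markers, and how much root the material held was not tested. The root hair regulator RHD6 was at 0 in every library. With salt 2 of the 7 root markers fell in atdgcr14l-1, 3 in OE-6 and 2 in Col-0 (28.6%, 42.9% and 28.6%), beside 26.7%, 25.7% and 21.4% of all genes tested. Levels and falls of chloroplast genes below are those of the RNA that poly(A) selection recovered. The part of tissue make-up in the changes below was not tested. In bulk seedlings fewer green cells, less chloroplast RNA per cell and a change in the tailed part of that RNA cannot be told apart.

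Chloroplast genes supplied less of the sequenced RNA at 24 h than at 0 h. Their share of all counts was 0.0190%, 0.0214% and 0.0298% in the atdgcr14l-1 libraries at 24 h, against 0.0398%, 0.0441% and 0.0404% at 0 h. In OE-6 it was 0.0289%, 0.03375% and 0.02585% at 24 h, against 0.0318%, 0.05475% and 0.0368% at 0 h. In Col-0 it was 0.0257%, 0.0295% and 0.0318% at 24 h, against 0.0446% and 0.0360% at 0 h. Every 24 h library of atdgcr14l-1 and of Col-0 lay below every 0 h library of its line, whereas OE-6 replicate 2 at 24 h lay above OE-6 replicate 1 at 0 h. Counting error was small beside these differences, with half-widths of the 95% Wilson intervals of 0.000363 to 0.000615 percentage points. These intervals cover counting error only and treat each estimated count as an independent read. Over all genes and libraries the value 1 occurred 2703 times, 2 occurred 8767 times and 3 occurred 4203 times. Whether 1 fragment can give more than 1 count was not tested, and the intervals may be too narrow.

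The mean share was lower at 24 h by 43.6% in atdgcr14l-1, 28.3% in OE-6 and 28.1% in Col-0. Over all lines, with time permuted within each line, the difference was -0.0137 percentage points (2-sided exact permutation test, p = 0.0005, adjusted over 11 tests 0.00275). Within a single line 3 libraries against 3, or 3 against 2, cannot give a p below 0.1, and the exact permutation p was 0.1 in atdgcr14l-1, 0.2 in OE-6 and 0.1 in Col-0. The share did not separate the lines past the threshold. At 24 h the mutant differed from OE-6 and Col-0 together by -0.00586 percentage points (exact permutation p = 0.0952, adjusted p = 0.183). Without atdgcr14l-1 replicate 3 at 24 h, the mutant library with the highest share, that difference was -0.00909 (exact permutation p = 0.0357, unadjusted). This p is the smallest that the remaining libraries can give. Leaving out the highest mutant library can only widen the difference, and no other single leave-out brought it past the threshold. At 0 h the difference was 0.000655 percentage points (exact permutation p = 0.964), and OE-6 differed from Col-0 by 0.000517 at 24 h and 0.000837 at 0 h (exact permutation p = 0.9 each).

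**Figure D1:**
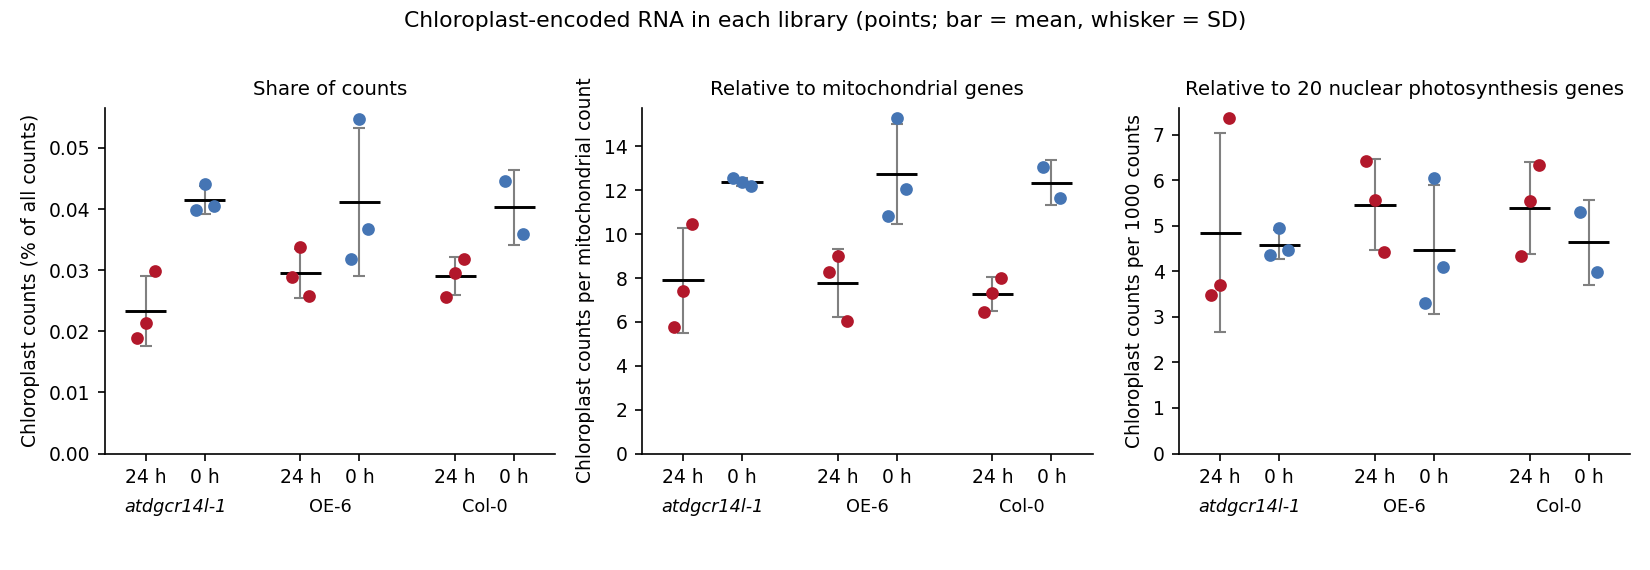
Chloroplast counts in each of the 17 libraries by line and time (red 24 h, blue 0 h), as % of all counts, per mitochondrial count, and per 1000 counts of 20 nuclear photosynthesis genes; points are libraries, bars means and whiskers SD. The share and the ratio to mitochondrial counts are lower at 24 h, that ratio lying at 5.77 to 10.48 against 10.85 to 15.3, while the ratio to nuclear photosynthesis genes overlaps between the times.

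Set against mitochondrial counts, the times did not overlap. The libraries held 5.77 to 10.48 chloroplast counts per mitochondrial count at 24 h, against 10.85 to 15.3 at 0 h, a difference of -4.85 (exact permutation p = 0.00025, the smallest that these arrangements can give, adjusted p = 0.00275). The mitochondrial share itself was 0.00285 to 0.00428% at 24 h, against 0.00293 to 0.00358% at 0 h (difference 0.000351 percentage points, exact permutation p = 0.0805). The ratio holds movement of both its terms. The mean mitochondrial share was 0.00300% at 24 h against 0.00335% at 0 h in atdgcr14l-1, 0.00384% against 0.00319% in OE-6, and 0.003998% against 0.00325% in Col-0. The times overlapped in atdgcr14l-1 and OE-6 and not in Col-0. Set against the 20 nuclear photosynthesis genes, whose share was also lower at 24 h, the chloroplast genes showed no such separation. There were 3.49 to 7.36 chloroplast counts per 1000 counts of these nuclear genes at 24 h and 3.30 to 6.04 at 0 h (difference 0.669, exact permutation p = 0.265).

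Gene by gene, every change with salt that passed the test was a fall. In edgeR's quasi-likelihood test at a Benjamini-Hochberg adjusted p under 0.05, 45 of the 83 tested members fell in atdgcr14l-1 and none rose (26.7% of all 21282 genes tested fell and 31.3% rose). In OE-6, 29 of 83 fell and none rose, against 25.7% and 29.5% of all genes. In Col-0, 30 of 83 fell and none rose, against 21.4% and 25.4% of all genes. DESeq2 also called 0 rises in each line. Members with an unadjusted p under 0.05 in either direction numbered 51, 33 and 33 of 83 in the same order of lines. Of all 21282 genes, 13211, 12770 and 11368 had such a p, so by this rule the members were not in excess. The members that fell made up 54.2%, 34.9% and 36.1% of those tested in atdgcr14l-1, OE-6 and Col-0, each above the share of all genes that fell.

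The median log2 fold change over the tested members was -0.88 in atdgcr14l-1, -0.615 in OE-6 and -0.71 in Col-0, against 0.03 in each line over all genes. Between the lower and upper quartile the members ran from -1.31 to -0.535 in atdgcr14l-1, from -0.99 to -0.34 in OE-6 and from -1.06 to -0.46 in Col-0. Fold changes below 0 were seen for 83, 76 and 79 members in these lines. The libraries of the 2 times did not overlap, with 24 h lower, for 63 members in atdgcr14l-1, 32 in OE-6 and 59 in Col-0, where 32%, 29.1% and 34.3% of all genes behaved so. No member had a fold change above 0 in every line, and 9 had one above 0 in at least 1 line.

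Of the 83 tested members, 26 fell in all 3 lines, 6 in 2 lines, 14 in 1 line and 37 in none. Of all genes tested, 17.5% fell in all 3 lines. Some loci had nearly equal levels, such as ATCG00840 and ATCG01300 with means of 0.787 and 0.781 CPM in Col-0 at 24 h. At 0 h their Col-0 means were 1.655 and 1.617 CPM. Each such locus is counted as its own member, and whether they are copies of 1 gene was not tested. The number shared by all lines rests on single libraries, being 17 without Col-0 replicate 1 at 0 h, 16 without OE-6 replicate 2 at 0 h, 16 without OE-6 replicate 1 at 24 h and 17 without OE-6 replicate 3 at 24 h. The OE-6 count was 18 without its replicate 2 at 0 h and 18 without its replicate 1 at 24 h, and the Col-0 count was 19 without its replicate 1 at 0 h. Across the 83 members the fold changes of the lines ran together, as a description over genes that share libraries and are not independent. Pearson's r was 0.709 between atdgcr14l-1 and Col-0, 0.766 between OE-6 and atdgcr14l-1 and 0.779 between OE-6 and Col-0. The fall was the steeper one in the mutant for 60 of the 83 members when set beside Col-0.

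The calls were also counted by depth. Among 12 members with a mean under 20 counts, 5 fell in atdgcr14l-1, 2 in OE-6 and 3 in Col-0, while among 18 members with at least 200 counts, 12, 9 and 8 fell. Medians of the shallow and the deep class were -0.84 and -0.815 for atdgcr14l-1, -0.56 and -0.56 for OE-6, and -0.79 and -0.57 for Col-0. Nuclear genes of the same depth fell in 9.09%, 8.32% and 4.96% of cases under 20 counts and in 28.8%, 28.4% and 24.1% of cases at 200 counts or more.

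**Figure D2:**
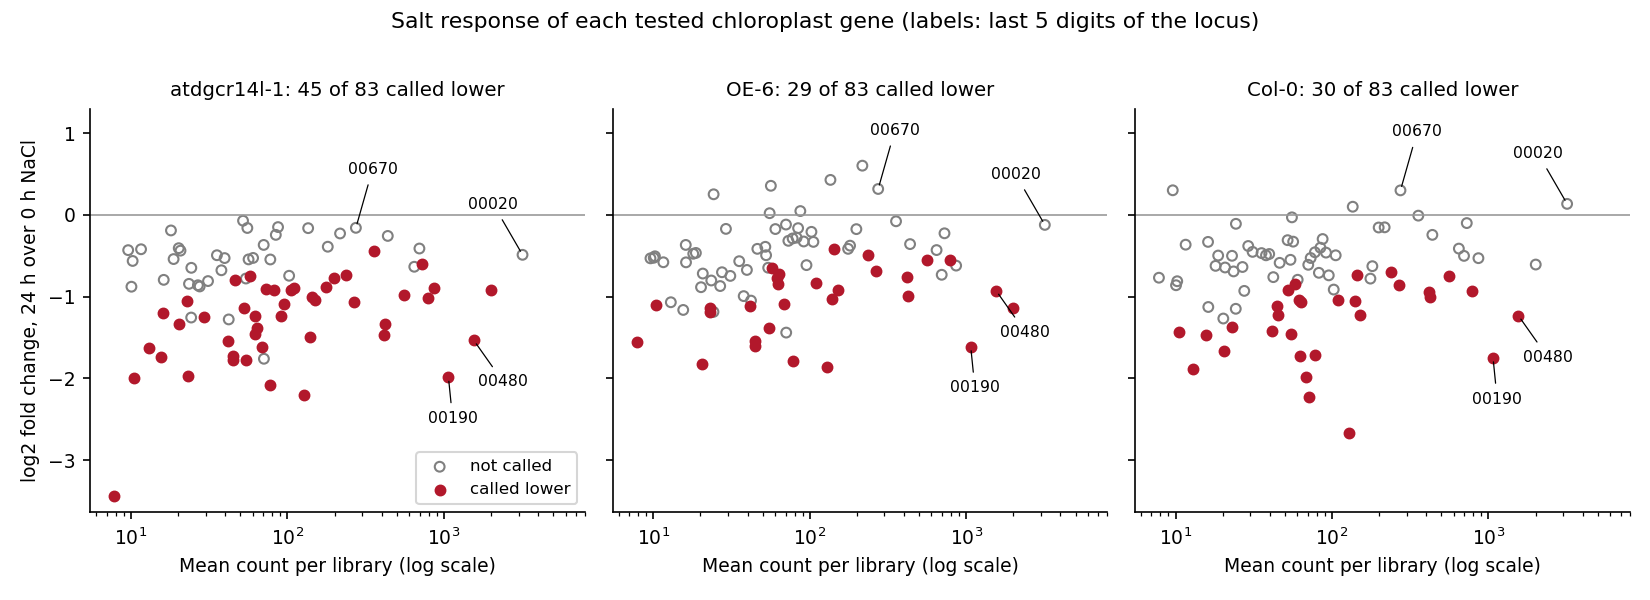
Log2 fold change with salt (24 h over 0 h) against the mean count per library (log scale) for the 83 tested chloroplast genes in each line; filled red circles passed an adjusted p under 0.05 and open circles did not. Most genes lie below 0 in every panel, 45, 29 and 30 of them called, and ATCG00190 is the deeply sequenced gene with the steepest fall.

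The chloroplast counts were concentrated in a few genes. One locus, ATCG00020, held 17.1% of them over all libraries, the leading 4 held 42.0%, the leading 10 held 65.0% and the leading 20 held 81.2%. Each library held a count for at least 86 of the 88 members, though not always for the same ones. ATCG01250 was at 0 in OE-6 replicate 3 at 24 h and replicate 1 at 0 h, against 88 and 97 counts in replicate 2. ATCG00890 held 48 and 56 counts in the libraries where ATCG01250 was at 0. Elsewhere these loci had similar counts, such as 91 and 81 for ATCG00890 and 94 and 79 for ATCG01250 in Col-0 at 0 h. ATCG01100 was at 0 in OE-6 replicate 1 at 24 h, against 41 counts in replicate 2. The cause of these zeros was not tested. For a member at 0 the limit of 3 counts amounts to 5.31e-06 to 5.65e-06% of a library. This limit takes counts as independent reads and may not hold where another locus has nearly equal counts, which was not tested. Within groups, the ranking of the tested members agreed between libraries (Spearman 0.914 to 0.986). The median coefficient of variation of a member was 25.3% in atdgcr14l-1, 24.0% in OE-6 and 21.1% in Col-0 at 24 h, against 12.3%, 28.9% and 13.9% at 0 h.

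ATCG00190 had the smallest p of all members for salt in each line. Its level was 7.91, 8.37 and 7.525 CPM in atdgcr14l-1 at 24 h, against 30.2, 34.7 and 29.3 CPM at 0 h. In OE-6 it was 10.3, 9.07 and 10.02 CPM at 24 h, against 27.0, 31.8 and 31.15 CPM at 0 h. In Col-0 it was 8.71, 10.1 and 11.65 CPM at 24 h, against 35.05 and 33.2 CPM at 0 h. All 24 h libraries lay below all 0 h libraries. The log2 fold change was -1.985 ± 0.11, -1.61 ± 0.11 and -1.75 ± 0.12 (SE) in atdgcr14l-1, OE-6 and Col-0 (edgeR adjusted p = 6.33e-09, 4.87e-08 and 9.66e-08).

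ATCG00480 also fell in every line. It had 12.3, 12.99 and 13.25 CPM in atdgcr14l-1 at 24 h, against 37.4, 40.73 and 33.7 CPM at 0 h (log2 fold change -1.54 ± 0.175, edgeR adjusted p = 3.82e-06). In OE-6 it had 19.3, 31.2 and 16.9 CPM at 24 h, against 38.8, 48.7 and 40.9 CPM at 0 h (-0.93 ± 0.17, adjusted p = 0.00035). In Col-0 it had 17.5, 19.6 and 17.6 CPM at 24 h, against 44.95 and 40.74 CPM at 0 h (-1.23 ± 0.19, adjusted p = 0.000104). The groups did not overlap in any line, and OE-6 replicate 2 was the highest of the 24 h libraries.

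ATCG00020, the member with the most counts, did not pass the test in any line. Its level was 36.4, 39.9 and 60.7 CPM in atdgcr14l-1 at 24 h, against 61.5, 64.7 and 66.1 CPM at 0 h. In OE-6 it was 54.8, 71.7 and 42.2 CPM at 24 h, against 43.3, 90.1 and 50.4 CPM at 0 h. In Col-0 it was 58.2, 61.7 and 67.4 CPM at 24 h, against 66.1 and 47.7 CPM at 0 h. The times overlapped in OE-6 and Col-0, and replicate 3 of the mutant at 24 h stood just under its 0 h libraries. The log2 fold changes were -0.49 ± 0.265, -0.12 ± 0.26 and 0.13 ± 0.30 in atdgcr14l-1, OE-6 and Col-0 (edgeR adjusted p = 0.129, 0.717 and 0.738). Without atdgcr14l-1 replicate 3 at 24 h the mutant value was -0.75 (adjusted p = 0.0374). The direction turned in OE-6 without replicate 2 at 0 h (0.26) or replicate 3 at 24 h (0.05), and in Col-0 without replicate 2 at 0 h (-0.08).

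The make-up of the chloroplast RNA was read by scaling each library to its own chloroplast total, which asks whether a gene changed relative to the other chloroplast genes. On this scale the median of all genes moved by 0.96, 0.60 and 0.63 with salt in atdgcr14l-1, OE-6 and Col-0, and 65.8%, 45.1% and 39.7% of all genes rose while 2.5%, 4.39% and 2.76% fell. The adjustment ran over all genes, and with so many of them called the adjusted p is lenient for the members. An adjustment over the 83 members by themselves was not run. Of the 83 members, 3 rose and 5 fell in atdgcr14l-1, 4 rose and 4 fell in OE-6, and 2 rose and 7 fell in Col-0, by edgeR's quasi-likelihood test. The falls of 3 members passed in all lines, among them that of ATCG00190, at -1.04 ± 0.24, -1.02 ± 0.24 and -1.155 ± 0.26 (adjusted p = 0.00046, 0.00099 and 0.001). Its share of the chloroplast counts was 2.52 to 4.21% at 24 h, against 5.66 to 8.61% at 0 h.

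ATCG00020 took a larger share of the chloroplast counts at 24 h, 17.1 to 23.1% against 12.4 to 16.1% at 0 h, with no overlap. Relative to the chloroplast total it rose in OE-6 (0.50 ± 0.19, edgeR adjusted p = 0.0314) and Col-0 (0.75 ± 0.22, adjusted p = 0.00747), and its value in atdgcr14l-1 was 0.38 ± 0.19 (adjusted p = 0.074). ATCG00670, which the annotation names plastid-encoded CLP P, rose on this scale in every line. Its log2 fold changes were 0.76 ± 0.29, 0.92 ± 0.29 and 0.915 ± 0.33 in atdgcr14l-1, OE-6 and Col-0 (adjusted p = 0.0243, 0.0109 and 0.0294). Its share of the chloroplast counts was 1.43 to 3.04% at 24 h, against 0.876 to 1.35% at 0 h. Both rises are relative to the falling chloroplast total and rest on the lenient adjustment of this scale. Neither gene passed the test when libraries were scaled over all genes.

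**Figure D3:**
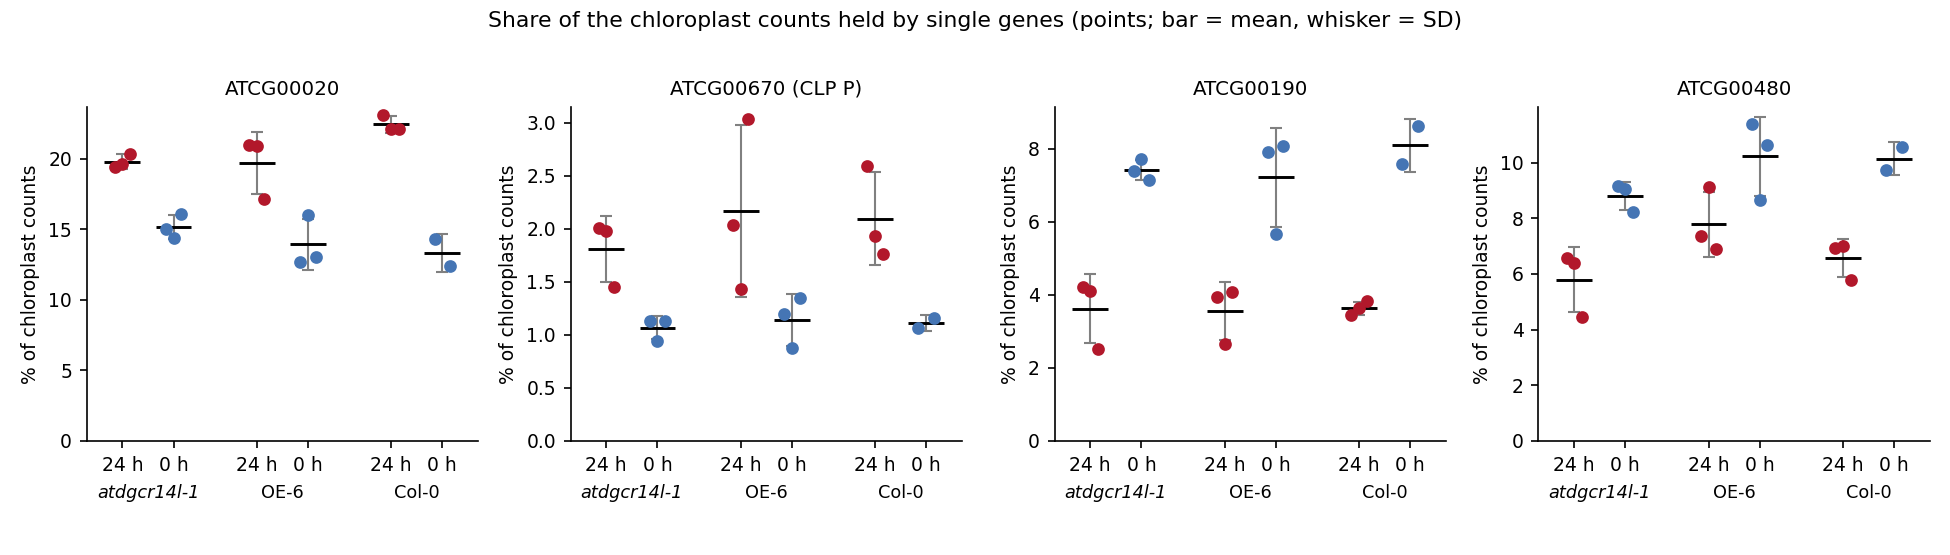
Share of the chloroplast counts (%) held by ATCG00020, ATCG00670, ATCG00190 and ATCG00480 in each library, by line and time (red 24 h, blue 0 h); points are libraries, bars means and whiskers SD. The share of ATCG00020 is 17.1 to 23.1% at 24 h against 12.4 to 16.1% at 0 h, and that of ATCG00190 is 2.52 to 4.21% against 5.66 to 8.61%.

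The annotated members included 3 proteins of the plastid ribosome, which translates chloroplast messages. ATCG01310, named ribosomal protein L2 of the large subunit, fell in every line. It had 9.06, 8.57 and 7.58 CPM in atdgcr14l-1 at 24 h, against 17.4, 16.6 and 17.01 CPM at 0 h (log2 fold change -1.02 ± 0.18, edgeR adjusted p = 0.000179). OE-6 libraries held 10.8, 17.5 and 11.37 CPM at 24 h, against 18.1, 20.7 and 19.5 CPM at 0 h (-0.555 ± 0.17, adjusted p = 0.014). Col-0 libraries held 7.96, 12.9 and 10.46 CPM at 24 h, against 19.7 and 20.1 CPM at 0 h (-0.93 ± 0.19, adjusted p = 0.00113). No 24 h library reached the 0 h libraries of its line. The OE-6 call was lost without replicate 1 at 24 h (-0.43) or replicate 3 at 24 h (-0.46). The reference chloroplast genome holds 2 copies of the gene for L2, so the level given for 1 locus may include reads of the other.

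ATCG00750, named ribosomal protein S11 of the small subunit, also fell in every line. It had 0.252, 0.294 and 0.504 CPM in atdgcr14l-1 at 24 h, against 0.762, 1.38 and 0.931 CPM at 0 h (log2 fold change -1.54 ± 0.45, edgeR adjusted p = 0.00893). In OE-6 it had 0.564, 0.574 and 0.369 CPM at 24 h, against 0.720, 1.72 and 0.829 CPM at 0 h (-1.11 ± 0.44, adjusted p = 0.0441). In Col-0 it had 0.284, 0.398 and 0.788 CPM at 24 h, against 1.55 and 1.07 CPM at 0 h (-1.42 ± 0.48, adjusted p = 0.0253). The times did not overlap in any line. The call in OE-6 was lost when any of 8 libraries was left out, with -0.62 without OE-6 replicate 2 at 0 h as the smallest fall, and also without OE-6 replicate 1, 2 or 3 at 24 h. For the remaining 4, Col-0 replicates 1 and 2 at 0 h, Col-0 replicate 2 at 24 h and atdgcr14l-1 replicate 3 at 0 h, the fold change stayed at -1.11. The Col-0 call was lost without its replicate 1 at 0 h (-1.12), replicate 1 at 24 h (-1.14) or replicate 2 at 24 h (-1.29).

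ATCG00660, named ribosomal protein L20 of the large subunit, did not pass the test in any line. It had 0.593, 0.1905 and 0.486 CPM in atdgcr14l-1 at 24 h, against 0.632, 0.938 and 0.763 CPM at 0 h. OE-6 libraries held 0.348, 0.389 and 0.316 CPM at 24 h, against 0.455, 0.554 and 0.710 CPM at 0 h. Col-0 libraries held 0.1955, 0.415 and 0.350 CPM at 24 h, against 0.759 and 0.466 CPM at 0 h. Each line's 24 h libraries lay below its 0 h libraries, and the log2 fold changes were -0.88 ± 0.41, -0.70 ± 0.41 and -0.93 ± 0.455 in atdgcr14l-1, OE-6 and Col-0 (edgeR adjusted p = 0.0783, 0.164 and 0.108). Its mean was 27.5 counts per library. Without atdgcr14l-1 replicate 1 at 24 h the mutant value was -1.20 (adjusted p = 0.041).

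ATCG00670, the CLP P annotated as plastid-encoded, belongs to the Clp protease, which degrades proteins of the chloroplast stroma. Its level was 3.775, 4.02 and 4.32 CPM in atdgcr14l-1 at 24 h, against 4.63, 4.25 and 4.65 CPM at 0 h. In OE-6 it was 5.325, 4.91 and 7.49 CPM at 24 h, against 4.09, 4.93 and 5.21 CPM at 0 h. In Col-0 it was 6.54, 5.41 and 5.38 CPM at 24 h, against 4.90 and 4.48 CPM at 0 h. The times overlapped in atdgcr14l-1 and OE-6 and not in Col-0, where 24 h was the higher. Its log2 fold changes were -0.16 ± 0.16, 0.32 ± 0.16 and 0.30 ± 0.18 in atdgcr14l-1, OE-6 and Col-0 (edgeR adjusted p = 0.41, 0.103 and 0.183), and 0.43 in OE-6 without replicate 2 at 24 h (adjusted p = 0.0335).

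ATCG00530, named CemA-like for a chloroplast envelope membrane protein linked to proton extrusion, passed the test in the mutant and not in OE-6 or Col-0. It had 4.71, 5.42 and 4.09 CPM in atdgcr14l-1 at 24 h, against 7.53, 5.52 and 6.31 CPM at 0 h (log2 fold change -0.445 ± 0.15, edgeR adjusted p = 0.0203). In OE-6 it had 5.99, 6.76 and 7.54 CPM at 24 h, against 6.35, 7.59 and 7.498 CPM at 0 h (-0.08 ± 0.15, adjusted p = 0.678). In Col-0 it had 7.04, 7.81 and 5.97 CPM at 24 h, against 7.09 and 6.89 CPM at 0 h (-0.01 ± 0.17, adjusted p = 0.97). The mutant's times stood just apart and those of the other lines overlapped. The mutant call was lost without replicate 1 at 0 h (-0.32) or replicate 3 at 24 h (-0.35), and the difference between the lines' responses did not pass the test (atdgcr14l-1 minus Col-0 -0.435 ± 0.23, edgeR adjusted p = 0.597).

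The annotation names ATCG00430 photosystem II reaction center protein G, while its nuclear match is annotated as a subunit of NADH:ubiquinone oxidoreductase. These names point to different complexes. ATCG00430 is therefore not assigned to either complex here. It had 0.701, 1.18 and 0.846 CPM in atdgcr14l-1 at 24 h, against 2.04, 2.465 and 1.90 CPM at 0 h (log2 fold change -1.23 ± 0.22, edgeR adjusted p = 0.000261). OE-6 libraries held 1.61, 1.70 and 1.56 CPM at 24 h, against 1.59, 2.51 and 2.01 CPM at 0 h (-0.33 ± 0.22, adjusted p = 0.218). Col-0 libraries held 1.297, 1.45 and 1.56 CPM at 24 h, against 2.00 and 1.96 CPM at 0 h (-0.46 ± 0.24, adjusted p = 0.131). The times were apart in atdgcr14l-1 and Col-0 and overlapped in OE-6. The response of atdgcr14l-1 minus that of Col-0 was -0.77 ± 0.33 (unadjusted p = 0.0348, edgeR adjusted p = 0.524). That of OE-6 minus atdgcr14l-1 was 0.90 ± 0.31 (unadjusted p = 0.0108, edgeR adjusted p = 0.374).

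**Figure D4:**
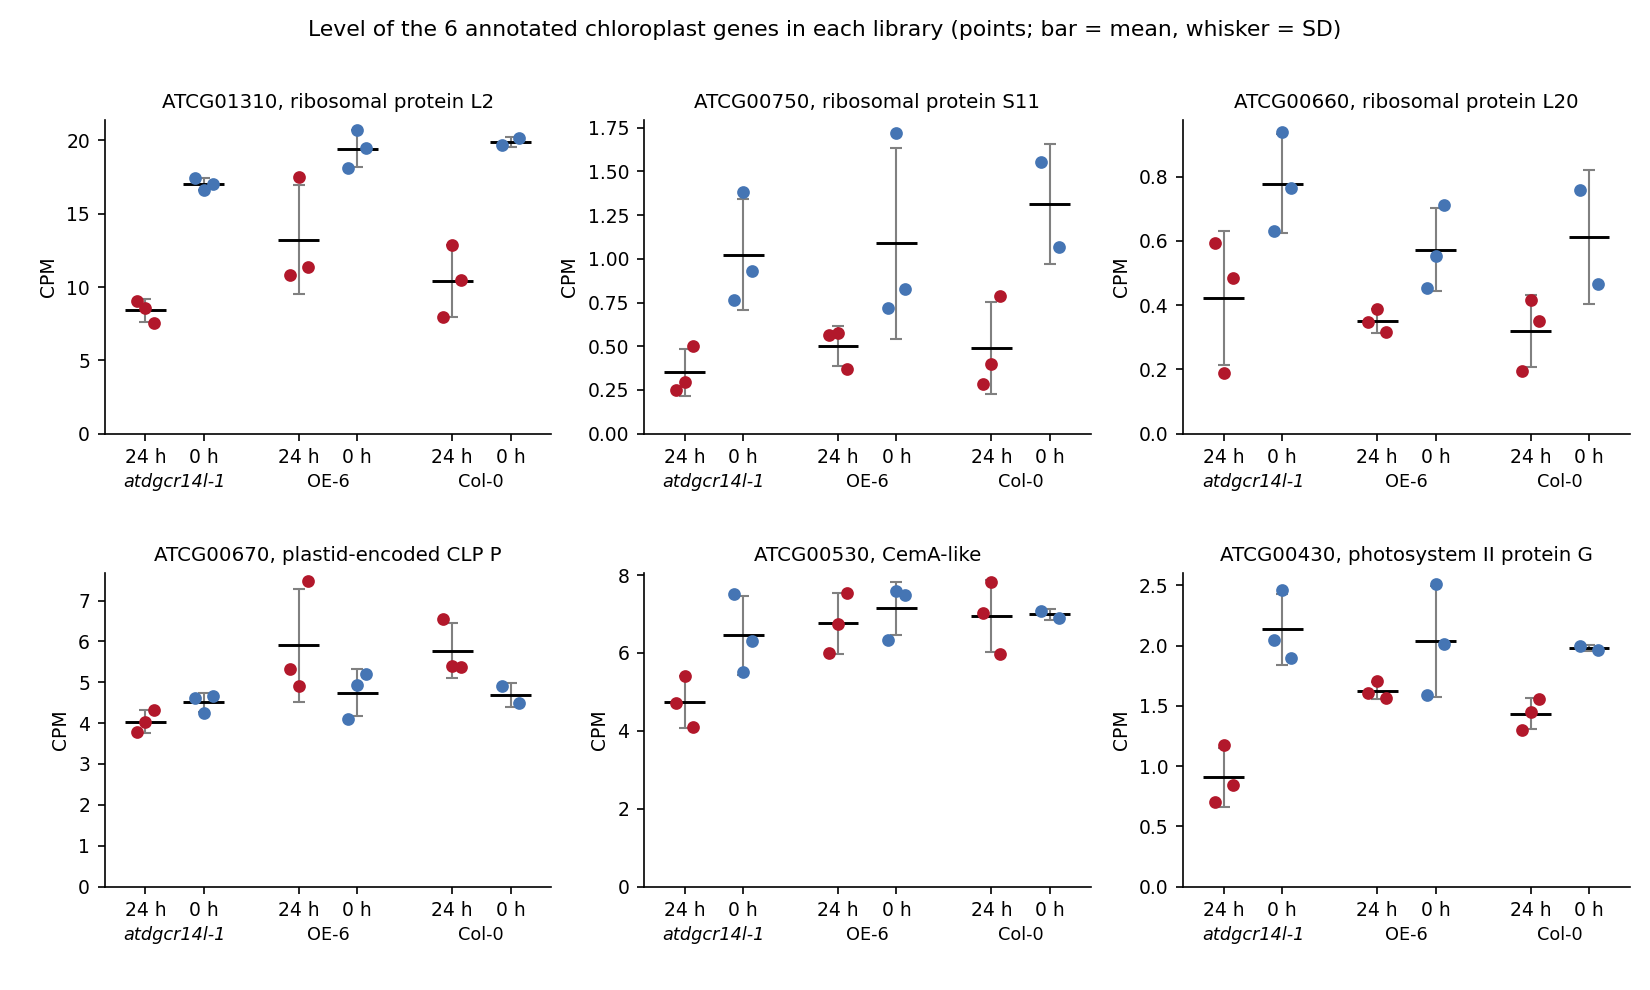
Level (CPM) of the 6 chloroplast genes that the reference annotation names, in each library by line and time (red 24 h, blue 0 h); points are libraries, bars means and whiskers SD. Ribosomal proteins L2 and S11 are lower at 24 h in every line. ATCG00430, which carries the photosystem II name only from the annotation, is lowest in the mutant at 24 h, at 0.701 to 1.18 CPM.

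Levels of different genes were compared per kilobase of coding length (CPM per kb), for the 5 of these members whose length the reference gives. In Col-0 at 24 h the order was ATCG01310 at 12.6 ± 2.97 (SD, n = 3), ATCG00530 at 10.1 ± 1.34, ATCG00670 at 9.77 ± 1.12, ATCG00750 at 1.18 ± 0.63 and ATCG00660 at 0.905 ± 0.318 CPM per kb. In Col-0 at 0 h it was ATCG01310 at 24.1 ± 0.39 (SD, n = 2), ATCG00530 at 10.1 ± 0.20, ATCG00670 at 7.94 ± 0.50, ATCG00750 at 3.14 ± 0.82 and ATCG00660 at 1.73 ± 0.59 CPM per kb. At 24 h the leading 3 lay within about 1 SD of their neighbours, as did the last 2, while at 0 h ATCG01310 stood clear of the rest. The coding lengths were 825 bases for L2, 690 for CemA-like, 591 for CLP P, 417 for S11 and 354 for L20.

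Between lines, few members passed the test, and those at 24 h. The comparisons in this paragraph share libraries with one another and with the salt contrasts at 24 h. In atdgcr14l-1 against Col-0 at 24 h, 5 of 83 members were lower and none higher by edgeR, beside 4.67% of all genes lower and 7.71% higher, so that the members' share of 6.02% was near the background. They included ATCG00530 (-0.55 ± 0.15, edgeR adjusted p = 0.0301), ATCG00670 (-0.52 ± 0.16, adjusted p = 0.0462) and ATCG00190 (-0.36 ± 0.11, adjusted p = 0.0453). In OE-6 against atdgcr14l-1 at 24 h, 10 of 83 were higher and none lower, beside 5.17% of all genes higher and 6.79% lower. They included ATCG00480 (0.81 ± 0.17, edgeR adjusted p = 0.0101), ATCG00430 (0.84 ± 0.22, adjusted p = 0.027), ATCG01310 (0.655 ± 0.18, adjusted p = 0.0281), ATCG00670 (0.55 ± 0.16, adjusted p = 0.0374) and ATCG00530 (0.51 ± 0.15, adjusted p = 0.0409). The members at an unadjusted p under 0.05 numbered 11 of 83 in the first comparison and 20 of 83 in the second. Of all 21282 genes, 6166 and 6364 had such a p, so by this rule the members were not in excess. DESeq2 called 8 and 12 members, and its calls over all genes were not counted. The medians over the tested members were -0.22 and 0.31.

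These counts were small and unstable. The count of 5 became 0 without Col-0 replicate 2, atdgcr14l-1 replicate 1 or atdgcr14l-1 replicate 3 at 24 h, 1 or 2 without Col-0 replicate 1 or 3 at 24 h, and 8 without OE-6 replicate 2 at 24 h. The same count was 1 to 3 without either Col-0 library, any atdgcr14l-1 library, or OE-6 replicate 2 or 3 at 0 h. The count of 10 became 1 without atdgcr14l-1 replicate 3 at 24 h, 4 without its replicate 1, 3 without OE-6 replicate 2 at 24 h and 6 without any 1 of the atdgcr14l-1 libraries at 0 h. In OE-6 against atdgcr14l-1, ATCG00480 was called whichever single library was left out (0.495 to 0.97), though not in a fit of those groups by themselves (0.84) or relative to the chloroplast total (0.43). There ATCG01310 lost its call without OE-6 replicate 2 (0.40) or atdgcr14l-1 replicate 3 (0.59) at 24 h, and ATCG00430 without either of these (0.80 and 0.79) or atdgcr14l-1 replicate 1 (0.68). ATCG00530 and ATCG00670 lost theirs in 9 of the 17 leave-outs each (0.42 to 0.62 and 0.34 to 0.665). For ATCG00530 these were either Col-0 library, atdgcr14l-1 replicate 3 or OE-6 replicate 2 or 3 at 0 h, and atdgcr14l-1 replicate 1 or 3 or OE-6 replicate 2 or 3 at 24 h. For ATCG00670 they were either Col-0 library or any atdgcr14l-1 library at 0 h, and any atdgcr14l-1 library or OE-6 replicate 3 at 24 h.

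In atdgcr14l-1 against Col-0 at 24 h, ATCG00530 lost its call without Col-0 replicate 1 or 2 or atdgcr14l-1 replicate 1 or 3 at 24 h (-0.66 to -0.45). ATCG00670 lost it in 13 leave-outs (-0.57 to -0.46), all but those of OE-6 replicate 1 at 0 h and of the OE-6 libraries at 24 h. ATCG00190 lost it in 11 (-0.50 to -0.25), all but those of atdgcr14l-1 replicate 2 and OE-6 replicate 1 at 0 h, and of Col-0 replicate 1, atdgcr14l-1 replicate 2 and OE-6 replicates 1 and 2 at 24 h. With libraries scaled to their chloroplast total, none of the 83 members differed in either comparison.

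No member passed edgeR's test in atdgcr14l-1 against Col-0 at 0 h, where 0.573% of all genes were lower and 1.45% higher. In that comparison 0 members had an unadjusted p under 0.05, beside 2637 of all 21282 genes, and DESeq2 called 0 members. None passed in OE-6 against atdgcr14l-1 at 0 h, where 3.09% of all genes were lower and 1.48% higher. There 1 member had an unadjusted p under 0.05, beside 3497 of all genes, and DESeq2 called 0 members. In OE-6 against Col-0 none passed at 24 h, where 0% of all genes were lower and 0.0047% higher. There 3 members had an unadjusted p under 0.05, beside 1693 of all genes, and DESeq2 called 0 members. At 0 h none passed either, where 0.0094% of all genes were lower and 0.0047% higher. There 0 members had an unadjusted p under 0.05, beside 436 of all genes, and DESeq2 called 0 members.

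A difference between lines in the salt response passed the test for no member. For atdgcr14l-1 minus Col-0 there were 3 members at an unadjusted p under 0.05 in edgeR and 0 called by DESeq2, with 0% of all genes lower and 0.0047% higher. For OE-6 minus atdgcr14l-1 there were 8 at an unadjusted p under 0.05 and 0 called by DESeq2, with 0.0094% of all genes lower and 0% higher. For OE-6 minus Col-0 there were 0 and 0, with 0% of all genes in each direction. These percentages are at an adjusted p under 0.05. At an unadjusted p under 0.05 there were 1900, 2080 and 914 of all 21282 genes, in the same order of comparisons. By that rule the members were not in excess. The greater number of falls in the mutant than in Col-0 is therefore not shown to be a difference in response.

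Most nuclear genes listed for transcribing and processing chloroplast RNA also fell. Of 40 such genes, 39 were tested. By edgeR's test 35 fell in atdgcr14l-1, 34 in OE-6 and 32 in Col-0 (89.7%, 87.2% and 82.1%), beside 26.7%, 25.7% and 21.4% of all genes. Of the 20 nuclear photosynthesis genes, 19 fell in atdgcr14l-1, 20 in OE-6 and 19 in Col-0, with median log2 fold changes of -1.03, -0.87 and -0.87. The sigma factor SIG5, which rose in OE-6, was the only 1 of the 39 with a fold change above 0 in any line. The median log2 fold changes of the 39 were -0.90, -0.999 and -0.745, beside -0.88, -0.615 and -0.71 for the chloroplast genes. PNP, the chloroplast polynucleotide phosphorylase that degrades and trims RNA from the 3' end, had the smallest p of the list in every line. It averaged 47.0 ± 2.49 CPM in atdgcr14l-1 at 24 h and 124 ± 2.80 CPM at 0 h (SD, n = 3 each). Its log2 fold changes were -1.40 ± 0.08, -1.36 ± 0.08 and -1.29 ± 0.09 in atdgcr14l-1, OE-6 and Col-0 (adjusted p = 1.14e-08, 2.5e-08 and 1.28e-07).

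Other strongly called members of the list were emb2746, the chloroplast ribonuclease J (-1.05, -1.11 and -0.94 in the same order of lines), and PTAC14, a protein of the plastid-encoded polymerase complex (-1.23, -1.35 and -1.125). HCF107, which stabilises chloroplast RNA ends, changed by -1.08, -0.73 and -1.03. All of these passed the test in every line.

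The 6 sigma factors did not move alike. SIG2 fell by 1.13, 1.12 and 1.025 on the log2 scale in atdgcr14l-1, OE-6 and Col-0 (edgeR adjusted p = 1.13e-07, 1.68e-07 and 1.54e-06), and SIG6 fell by 0.48, 0.58 and 0.55 (adjusted p = 0.000229, 5.12e-05 and 0.00025). SIG1 and SIG3 fell in atdgcr14l-1 (-0.42 and -0.60) and did not pass the test in OE-6 (-0.13 and -0.32) or Col-0 (-0.29 and -0.39). SIG4 fell in atdgcr14l-1 (-0.47) and OE-6 (-0.53), and its Col-0 value was -0.32 (adjusted p = 0.0501). Leaving out single 24 h libraries brought some of these uncalled values past the threshold at nearly the same size. This was so in Col-0 for SIG1 without atdgcr14l-1 replicate 3, for SIG3 without atdgcr14l-1 replicate 2 or 3 or OE-6 replicate 1 or 2, and for SIG4 without any 1 of those or Col-0 replicate 3. In OE-6 it was so for SIG3 without atdgcr14l-1 replicate 3, and without OE-6 replicate 2 the value was -0.50 and passed.

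SIG5, a sigma factor known to respond to light and stress, was higher at 24 h. It had 10.3, 10.1 and 20.7 CPM in atdgcr14l-1 at 24 h, against 9.57, 10.04 and 9.215 CPM at 0 h. In OE-6 it had 15.2, 19.1 and 14.2 CPM at 24 h, against 7.99, 8.345 and 8.94 CPM at 0 h. In Col-0 it had 12.5, 12.3 and 11.3 CPM at 24 h, against 8.715 and 7.20 CPM at 0 h. Every 24 h library lay above every 0 h library of its line. The rise passed the test in OE-6 (0.94 ± 0.22, edgeR adjusted p = 0.00192), and the values in atdgcr14l-1 and Col-0 were 0.51 ± 0.21 and 0.60 ± 0.24 (adjusted p = 0.0522 and 0.058). The mutant value rested on replicate 3 at 24 h, without which it was 0.09, and it passed the test without replicate 1 (0.68) or 2 (0.69) at 24 h or OE-6 replicate 2 at 24 h (0.51). The Col-0 value, still 0.60, passed without any 1 of the atdgcr14l-1 libraries at 24 h or OE-6 replicate 2 at 24 h.

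**Figure D5:**
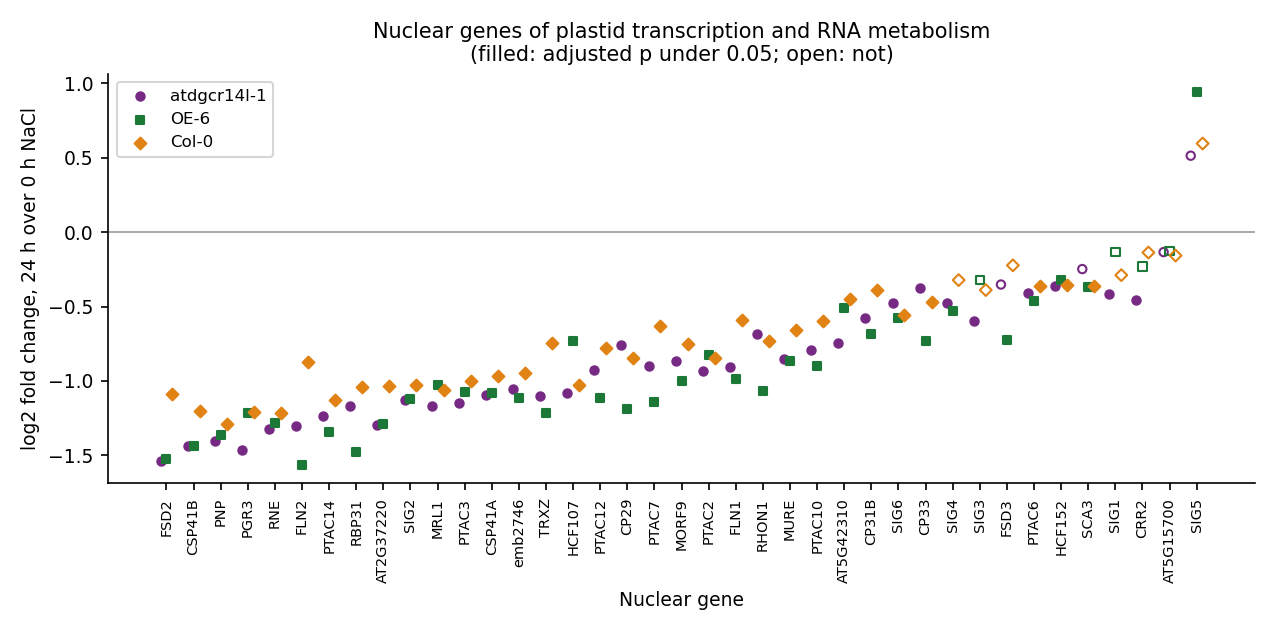
Log2 fold change with salt (24 h over 0 h) of 39 nuclear genes of plastid transcription and RNA metabolism in atdgcr14l-1 (circles), OE-6 (squares) and Col-0 (diamonds), filled where the adjusted p was under 0.05. All but SIG5 lie below 0 in every line, and SIG5 lies at 0.51, 0.94 and 0.60.

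The nuclear relatives of the 6 annotated chloroplast genes moved in several ways. AT5G11770, the match of ATCG00430, rose in every line (0.83, 0.63 and 0.77 in atdgcr14l-1, OE-6 and Col-0, edgeR adjusted p = 1.08e-06, 1.88e-05 and 1.67e-05), where ATCG00430 itself had -1.23, -0.33 and -0.46. AT4G31040, the match of ATCG00530, fell in every line (-0.20, -0.225 and -0.23, adjusted p = 0.0436, 0.0254 and 0.0403). The match of ribosomal protein L20, AT1G16740, rose in Col-0 (0.35, adjusted p = 0.0415), and CLP2, the match of CLP P, fell in OE-6 (-0.26, adjusted p = 0.0198). The matches of S11 and L2, NFD3 and AT2G44065, did not pass the test in any line, with values between -0.20 and 0.07.

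As a second organelle, 53 of 122 mitochondrial rows were tested. In atdgcr14l-1 3 rose and 6 fell, in OE-6 1 rose and 1 fell, and in Col-0 2 rose and 1 fell, with medians of -0.16, 0.12 and 0.22. The mitochondrial genes that fell made up 11.3%, 1.89% and 1.89% of those tested, beside 26.7%, 25.7% and 21.4% of all genes and 54.2%, 34.9% and 36.1% of the chloroplast genes. Those that rose made up 5.66%, 1.89% and 3.77%, beside 31.3%, 29.5% and 25.4% of all genes. Mitochondrial genes thus lay below the share of all genes in both directions. Their rows were shallow, all 122 together holding 1580 to 2321 counts in a library. Nuclear genes with a mean under 20 counts fell in 9.09%, 8.32% and 4.96% of cases. Those at 20 to under 50 counts fell in 18.8%, 16.5% and 12%. The part of depth in the mitochondrial shares was not tested.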

How the data were processed

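Poly(A) RNA was selected with oligo(dT) and made into strand-marked (dUTP) libraries read on DNBSEQ, per the labels' protocols. The deposited values are estimated counts per gene, one table per library, for which the submitters' processing notes name StringTie 2.1.7, Bowtie2 2.4.5 and DESeq2 2.11.40.7. The genome build, the order of these steps and the use of strand in counting are not given in the sources at hand, so reads of overlapping or antisense genes may be shared. All values were whole and were used as deposited. Library totals were 53058673 to 56464259, and the 17 libraries fell into 6 groups.

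The 17 libraries were fitted together with edgeR 4.0.16 (R 4.3.3, quasi-likelihood test, TMM scaling, its default filter on low counts), which tested 21282 genes, with Benjamini-Hochberg adjustment over all of them. CPM and fold changes were computed here. A separate fit took the chloroplast total as the library size. Shares were compared with 2-sided exact permutation tests over all arrangements, coded with numpy 2.4.6. The Wilson intervals came from scipy 1.17.1, and DESeq2 1.42.0 was an alternative to edgeR. The scripts were tested on simulated data. The members and lists were chosen with earlier results of these data known.

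Genes were to be named by functional class, taking those with the highest level and the smallest p, but the identifiers could not be paired with symbols or lengths. The class rule, the lists by polymerase and levels per length beyond 5 genes were therefore left out. In the nuclear list the 6 sigma factors and the genes with the smallest p were named, and 1 listed gene was not analysed here. No columns of other series were present.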

Additional observations from a re-analysis of the deposited data

How the results depend on the processing

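Counts below are in the order atdgcr14l-1, OE-6, Col-0 and fold changes are log2; the cause of each shift was not tested unless stated. Relative to the chloroplast total, 3, 4 and 2 members rose and 5, 4 and 7 fell with salt, 3 fell in all lines, and 0 differed in atdgcr14l-1 against Col-0 or in OE-6 against atdgcr14l-1 at 24 h. The adjustment over all genes is lenient for the salt calls on this scale. By construction this scale removes a fall shared by all members, and there ATCG00530 had 0.505, 0.506 and 0.599, ATCG00660 0.05 and ATCG00670 0.758 in atdgcr14l-1, ATCG00020 0.384 in atdgcr14l-1 and 0.498 in OE-6, and ATCG00430 0.283 in OE-6 and 0.132 in Col-0. A filter at a mean of 5 CPM left 14 members of 15286 genes, of which 10, 7 and 6 fell, 6 in all lines, and 6 differed in OE-6 against atdgcr14l-1 at 24 h. A fit of only the groups compared gave 17 falls in OE-6, 17 in all lines, 1 member in atdgcr14l-1 against Col-0 and 0 in OE-6 against atdgcr14l-1 at 24 h. DESeq2 gave 8 in atdgcr14l-1 against Col-0 at 24 h. Without atdgcr14l-1 replicate 3 and OE-6 replicate 2 at 24 h, 1 member rose in OE-6, 3 differed in atdgcr14l-1 against Col-0 and 2 in OE-6 against atdgcr14l-1 at 24 h. The differences in chloroplast share, atdgcr14l-1 against OE-6 and Col-0 at 24 h, and in chloroplast share, OE-6 against Col-0 at 24 h, were then -0.00819 points (exact permutation p = 0.0476) and -0.00161 points. That p is the smallest that the remaining libraries can give. On the log2 scale the difference in chloroplast share, OE-6 against Col-0 at 0 h, was -0.00105.

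Same-numbered libraries did not deviate together (correlations -0.162 to 0.324 over 40 pairs, and 7 of 17 libraries matched their own number best), so the numbers are not known to pair samples. The number of Col-0 replicate 2 at 0 h is itself in doubt, since its title gives 2 and its deposited table is marked 3, and both checks use the title's number. With a replicate block, 42, 26 and 30 members fell, 22 in all lines, 4 differed in atdgcr14l-1 against Col-0 and 6 in OE-6 against atdgcr14l-1 at 24 h, and ATCG00530 had 0.006 in Col-0.

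Leaving out 1 library at a time, falls ranged from 34 to 57 in atdgcr14l-1, 18 to 31 in OE-6, 19 to 33 in Col-0 and 16 to 26 in all lines, and rises in OE-6 from 0 to 2. Members that differed at 24 h ranged from 0 to 8 in atdgcr14l-1 against Col-0 and from 1 to 14 in OE-6 against atdgcr14l-1. The share at 24 h against 0 h ranged from -0.0152 to -0.0114 points over all lines. Shares between lines ranged from -0.00909 to -0.00365 (atdgcr14l-1 against OE-6 and Col-0, 24 h), -0.00159 to 0.00414 (the same, 0 h), -0.00161 to 0.00234 (OE-6 against Col-0, 24 h) and -0.00597 to 0.00549 (the same, 0 h). ATCG00530 ranged from -0.169 to 0.001 in OE-6 and -0.103 to 0.087 in Col-0, and ATCG00020 from -0.336 to 0.264 in OE-6 and -0.081 to 0.389 in Col-0. Shares without chloroplast rRNA and tRNA genes or without genes of the inverted repeat were not run, since the identifiers could not be assigned. Members with few counts limit what could be detected.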
